A study of Rattus norvegicus with 15 samples.

Results

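The mitochondrial ribosomal proteins were taken as every gene whose symbol is Mrpl or Mrps followed by a number and that at least 1 probe set names alone. There were 73 such genes among 14217 named genes, and they were represented by 97 of 31042 probe sets. Split by symbol, 46 were of the large subunit (Mrpl) and 27 of the small subunit (Mrps). Mrps18a and Mrps30 sit in the large subunit despite their names, but are counted with the small subunit throughout. Each gene was read from its brightest probe set, and 71 of the 73 passed the filter on low signals; Mrpl14 and Mrpl38, both large-subunit genes, did not. The data are Affymetrix RAE230_2 arrays, each hybridised with total RNA from the epididymal fat of a single rat. Epididymal fat is a visceral depot next to the testis. The diet-induced obese rats were 7 male Long-Evans rats fed a high fat/high sucrose diet (TD95217) from weaning, and the lean rats were 8 male Long-Evans rats fed Purina chow from weaning. All were 26 weeks old when killed. Every obese rat had the high fat/high sucrose diet and every lean rat had chow, so diet and obesity cannot be told apart. Signals come from the MAS5 program and give, on a linear scale, how brightly the probes for a transcript lit up. The question was whether the transcripts of these proteins differed between obese and lean rats, subunit by subunit.

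The mitochondrial ribosome translates the few proteins encoded by mitochondrial DNA, all of them core subunits of the respiratory chain and ATP synthase. Its ribosomal RNAs come from mitochondrial DNA, whereas all of its proteins are encoded in the nucleus, made in the cytosol and imported. The large subunit forms peptide bonds and releases the growing chain through an exit tunnel, and the small subunit holds and decodes the messenger. Many of the proteins descend from bacterial ribosomal proteins and others are found in mitochondria alone. White adipocytes use their mitochondria for fatty acid handling and lipogenesis as well as respiration.

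The arrays labelled obese rat 1 (C1) and lean rat 7 (A7) were nearly identical. Over the 18625 probe sets above the filter their correlation was 0.986 and their median absolute log2 difference 0.0902, against 0.191 for the next closest pair. Over the mitochondrial ribosomal proteins that difference was 0.0858. The labels do not settle where either array belongs. The main results are therefore given with all 15 arrays and with the 13 that remain without this pair, 6 obese and 7 lean. Other values are of all 15 arrays unless stated, and include this pair. Trimmed mean signals were 1500.34 to 1500.42 on the 15 arrays, and the number of arrays limits the precision. All 12 adipocyte markers lay above the filter, while 0 of 4 epididymal epithelium markers with a probe set did.

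The log2 fold changes of the 71 members tested, obese over lean, ran from -0.27 to 0.31 with 15 arrays. With 13 arrays they ran from -0.34 to 0.34. No member passed the threshold, an adjusted p under 0.05 over all 18625 probe sets, with 15 arrays (0 of 71 members; 0% of all probe sets) or with 13 (0 of 71; 1.01% of all probe sets, 0.725% higher and 0.29% lower) in the test by limma. With 15 arrays no probe set at all passed, so a miss there says nothing particular to the members. More members had positive than negative differences. With 15 arrays 50 of 71 had a positive log2 fold change, obese over lean, against 42.5% of all probe sets tested and 46.9% of 10514 genes that were likewise read from their brightest probe set. Their median log2 fold change was 0.077, and that of these genes was -0.014. The subunits, split by symbol, did not separate in this measure. The median was 0.077 over 44 large-subunit genes, 32 of them positive. Over 27 small-subunit genes, 18 of them positive, it was 0.077 as well. With 13 arrays the medians were 0.099 for the large subunit, 31 positive, and 0.078 for the small subunit, 19 positive, with 42.2% of all probe sets and 46.7% of genes positive and a median of -0.017 over all genes.

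**Figure D1:**
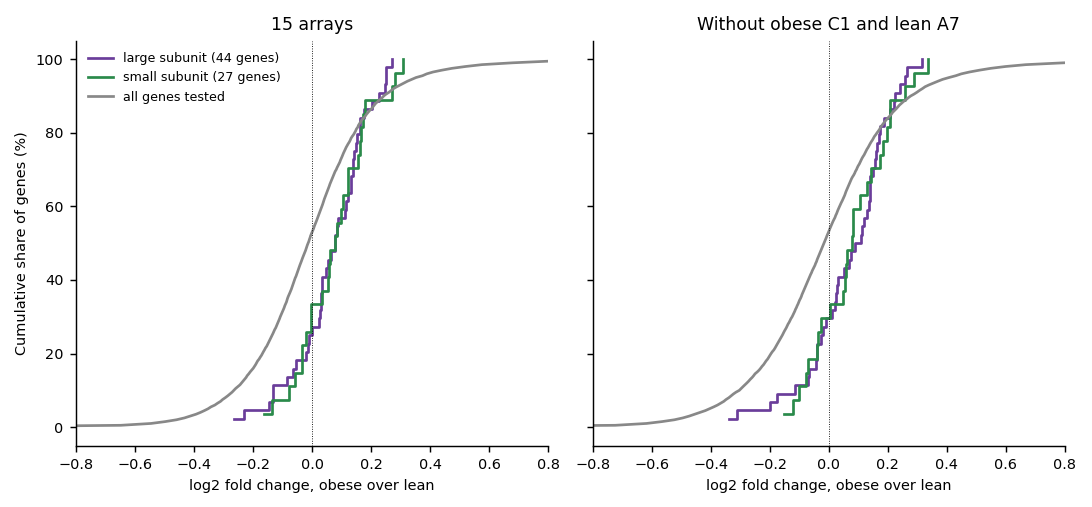
Cumulative share of genes (vertical axis, percent) by log2 fold change of obese over lean rats (horizontal axis) for 44 large-subunit genes, 27 small-subunit genes and all 10514 genes tested, with 15 arrays on the left and 13 on the right. The lines of both subunits run close together, right of the line of all genes below about the 80% mark and inside it at the upper end.

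These medians are small, and they depend on how the arrays are scaled. When each array was centred on its median signal in place of the deposited scaling, the log2 fold change of all probe sets shifted by 0.10 with 15 arrays and by 0.12 with 13. With 15 arrays the share of all probe sets with a positive value then was 63.5% in place of 42.5%. Centring adds the same amount to every probe set of an array, so the count of positive members, 64 of 71, moved with that shift and says nothing particular to the members. For the same reason it cannot change the distance between the members' median and that of all probe sets, which was 0.11 with 15 arrays and 0.12 with 13. With quantile normalization that distance was 0.076 with 15 arrays and 0.080 with 13.

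At an unadjusted p under 0.05, 5 members were higher and 1 lower in obese rats with 15 arrays, against 6.74% and 8.82% of all probe sets and 7.75% and 6.96% of genes by their brightest probe set. With 13 arrays 4 were higher and 2 lower, against 7.59% and 10.2% of probe sets and 8.54% and 8.17% of genes. The members' share of higher signals was near that of the background with 15 arrays, and their share of lower signals was under it; neither difference was tested. The intervals show how large a difference could have been missed in the brightest probe set of a tested member. Other probe sets of the members are not covered, nor are Mrpl14 and Mrpl38, which were below the filter. With 15 arrays the 95% intervals of all 71 members, each unadjusted for the number of genes, lay between 0.694-fold and 1.55-fold, and with 13 arrays between 0.664-fold and 1.58-fold. The folds are on the scale of signal + 79.9, which understates the change of dim genes. In bulk tissue fewer cells of a type and less RNA per cell cannot be told apart.

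**Figure D2:**
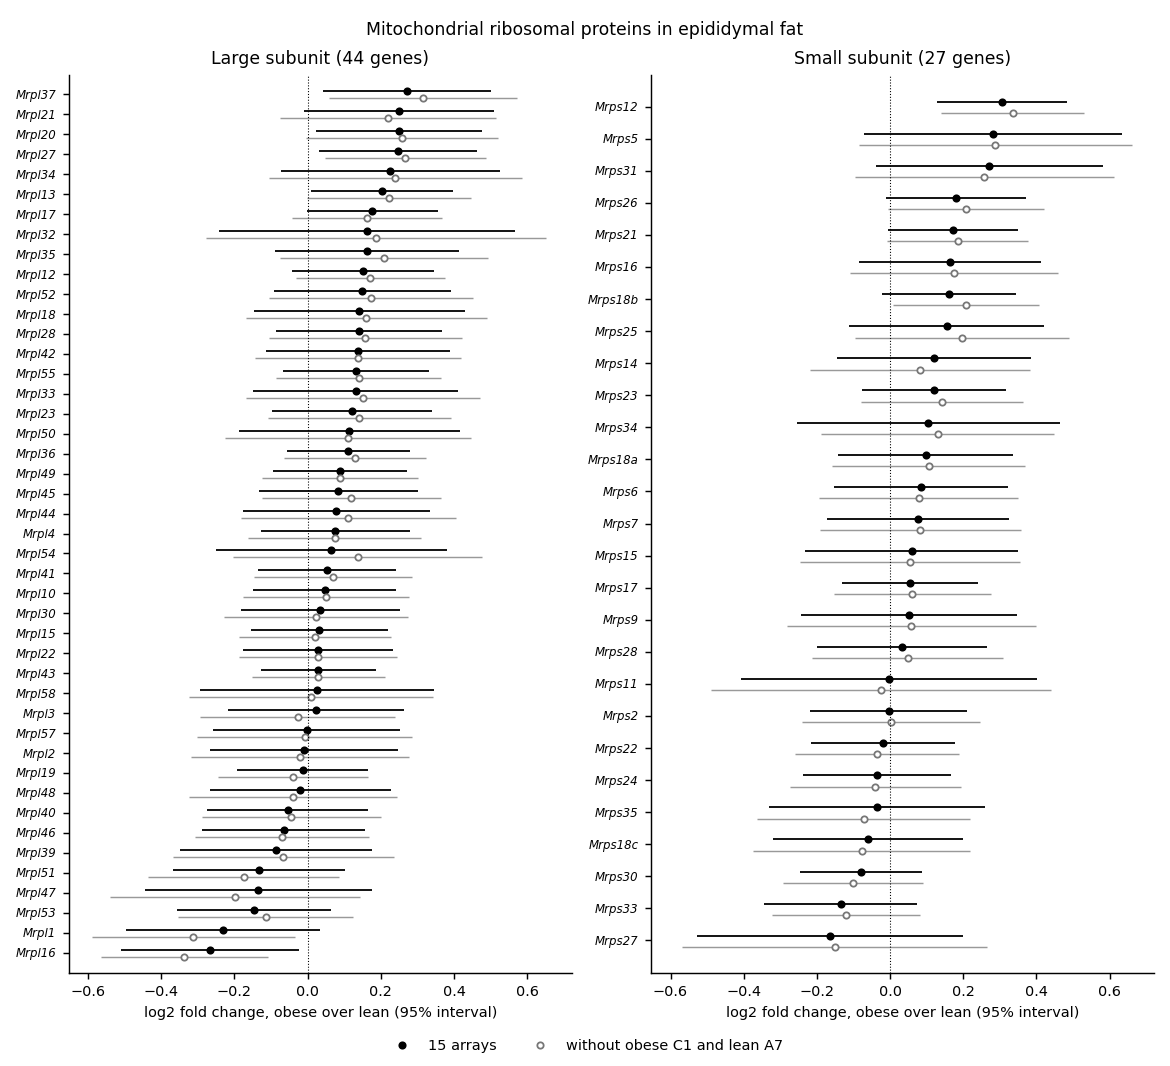
Log2 fold change of obese over lean rats (horizontal axis) with its unadjusted 95% interval for 44 large-subunit genes (left) and 27 small-subunit genes (right), from 15 arrays (black) and without obese C1 and lean A7 (grey, open points). Mrps12 and Mrpl37 stand at the top of their panels and Mrps27 and Mrpl16 at the bottom, and no gene passed the threshold of an adjusted p under 0.05.

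The promoters of these genes were examined for what the members share beyond their names. RefSeq promoters of the rat build GRCr8, 250 bases before to 50 bases after each gene's start, were matched for 59 of the 73 members. Both strands were searched for 4 motifs: CCGGAAG, bound by ETS factors such as GABPA (also called NRF-2), AAGATGG, bound by YY1, GCGCATG, from the site of NRF1, and TATAAA, the TATA box. GABPA, NRF1 and YY1 are known regulators of nuclear genes for mitochondrial proteins. The ETS motif stood in 20 of 59 members' promoters (33.9%), against 9.22% of 27457 promoters of all genes and 17.4% of 8726 promoters of genes above the filter. The YY1 motif stood in 15 (25.4%), against 7.30% and 8.51%. The NRF1 motif stood in 6 (10.2%), against 3.94% and 6.73%, and the TATA motif in 7 (11.9%), against 14.3% and 7.24%. The median G+C content was 56% in the members, 52.3% in all promoters and 61% in those of genes above the filter. A match is a description of the letters and not a binding site.

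The 2 subunits had similar promoters. The ETS motif was found in 34.2% of 38 large-subunit promoters and 33.3% of 21 small-subunit promoters, and the YY1 motif in 23.7% and 28.6%. Matches lay close to the gene start: 21 of 22 ETS matches began within 100 bases of it, and 10 of 16 YY1 matches began after it. In 33 members at least 1 of the ETS, YY1 and NRF1 motifs was present, and in 0 members did an ETS and a YY1 match overlap. Members with the ETS motif had a median log2 fold change of 0.10 with 15 arrays (15 of 20 positive), and those without it 0.078 (27 of 38 positive). With and without the YY1 motif the medians were 0.097 and 0.065. The medians with and without either motif thus lay within a few hundredths of each other, and their difference was not tested.

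**Figure D3:**
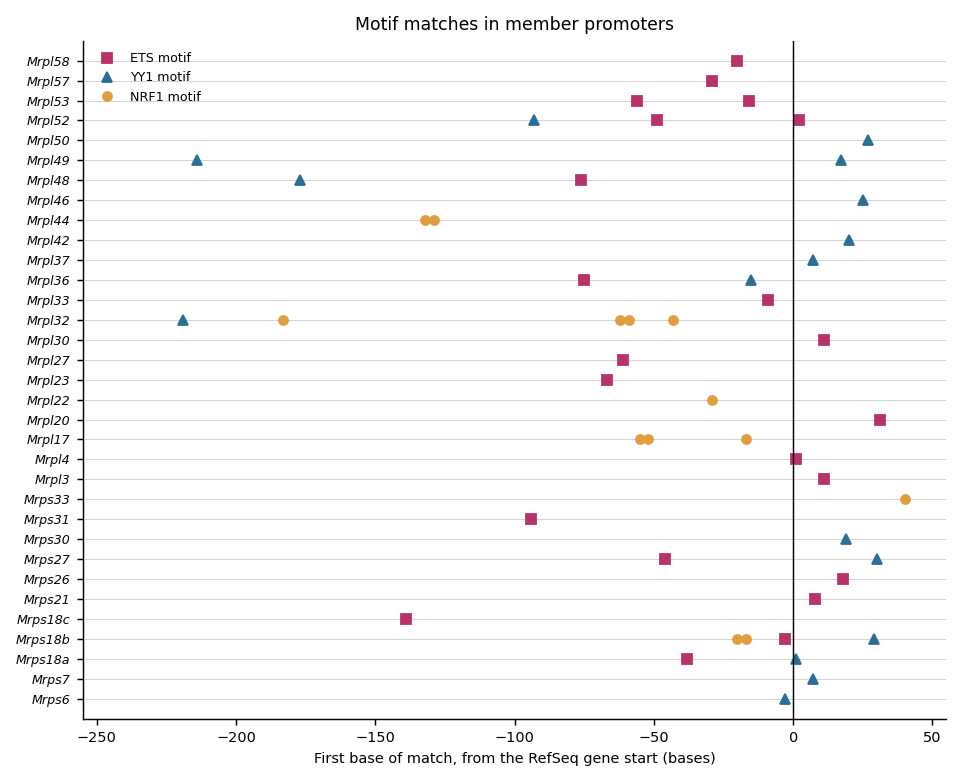
Position of the first base of each ETS, YY1 and NRF1 motif match (horizontal axis, bases from the RefSeq gene start at the vertical line) in the promoters of the 33 members that hold at least 1, a row per gene. ETS matches gather on both sides of the start, with 21 of 22 within 100 bases of it, and most YY1 matches follow it.

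Promoters are shown for the members with the most positive and the most negative log2 fold change of each subunit among those with a table entry, and for Mrps18b, which held all 3 regulator motifs. Capitals mark matches of the ETS, YY1 and NRF1 motifs on either strand. Those of Mrpl37 (chr5:127074918-127075217, minus strand), Mrpl1 (chr14:13663472-13663771, minus strand), Mrps5 (chr3:135274083-135274382, plus strand), Mrps27 (chr2:32473954-32474253, plus strand) and Mrps18b (chr20:2842756-2843055, plus strand) read, from 5′ to 3′ on the gene's strand, in RefSeq's GRCr8:
Mrpl37: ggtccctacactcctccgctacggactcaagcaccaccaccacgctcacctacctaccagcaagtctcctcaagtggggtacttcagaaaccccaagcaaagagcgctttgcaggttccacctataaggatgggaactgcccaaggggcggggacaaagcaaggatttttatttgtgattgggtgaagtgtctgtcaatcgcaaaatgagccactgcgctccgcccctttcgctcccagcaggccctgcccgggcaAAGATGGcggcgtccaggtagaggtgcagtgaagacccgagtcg
Mrpl1: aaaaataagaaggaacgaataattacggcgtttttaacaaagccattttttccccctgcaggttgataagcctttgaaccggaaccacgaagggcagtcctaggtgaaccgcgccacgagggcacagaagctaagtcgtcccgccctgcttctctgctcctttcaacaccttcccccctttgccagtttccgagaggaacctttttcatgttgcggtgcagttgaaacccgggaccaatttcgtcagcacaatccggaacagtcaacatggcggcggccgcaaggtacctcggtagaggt
Mrps5: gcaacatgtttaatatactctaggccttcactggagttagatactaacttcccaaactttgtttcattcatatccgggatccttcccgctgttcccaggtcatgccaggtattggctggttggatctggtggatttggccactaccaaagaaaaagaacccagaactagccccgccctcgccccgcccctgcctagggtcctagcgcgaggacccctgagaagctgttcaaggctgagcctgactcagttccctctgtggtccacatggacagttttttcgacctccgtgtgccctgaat
Mrps27: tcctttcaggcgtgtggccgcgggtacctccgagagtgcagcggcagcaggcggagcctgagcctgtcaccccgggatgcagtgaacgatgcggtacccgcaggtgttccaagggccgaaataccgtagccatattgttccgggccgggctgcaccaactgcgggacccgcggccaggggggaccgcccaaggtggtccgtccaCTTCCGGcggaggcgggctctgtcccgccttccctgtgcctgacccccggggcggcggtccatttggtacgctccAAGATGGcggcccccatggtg
Mrps18b: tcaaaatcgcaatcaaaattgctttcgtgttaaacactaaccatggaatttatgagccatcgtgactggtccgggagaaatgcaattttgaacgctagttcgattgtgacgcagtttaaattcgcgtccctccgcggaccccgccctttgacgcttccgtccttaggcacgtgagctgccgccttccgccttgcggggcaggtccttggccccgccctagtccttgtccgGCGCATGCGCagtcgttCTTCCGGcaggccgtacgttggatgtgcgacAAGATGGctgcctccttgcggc
Mrpl37, with a positive log2 fold change, had the YY1 letters 7 bases after its start, and Mrps27, with a negative one, had the same letters at base 30 and an ETS match 46 bases before the start. Mrpl1 and Mrps5 had no match, although their log2 fold changes were of opposite sign. None of these genes passed the threshold, and whether the motifs go with the direction of the difference was not tested.

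Among large-subunit proteins with a bacterial counterpart, 20 of 25 members above the filter had a positive log2 fold change with 15 arrays, with a median of 0.12, and 19 of 25 with 13, with a median of 0.14. No member passed the threshold. Mrpl27, the counterpart of a bacterial protein at the peptidyl transferase centre, had signals of 3899.1, 4357.3 and 5421.6 (lowest, median and highest) in obese rats and 3394.4, 3785 and 4844 in lean rats. Its log2 fold change was 0.25 ± 0.10 (SE), with a limma adjusted p of 0.258. The groups overlapped, and the highest lean signal was that of lean rat 7; without the pair the highest lean signal was 4137.

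Mrpl20, whose bacterial counterpart binds ribosomal RNA early in assembly, had signals of 3935.8, 5383.4 and 6582.5 in obese rats and 3933, 4473.4 and 5242.7 in lean rats. Mrpl21 had 1795.4, 2285.1 and 2682.7 in obese rats and 1480.4, 1790.6 and 2439.2 in lean rats. The log2 fold change of each was 0.25, with limma adjusted p of 0.278 for Mrpl20 and 0.342 for Mrpl21, and the groups overlapped in both. Mrpl34, at 2001.5, 2288.3 and 3730.8 in obese rats and 1448.7, 2085.6 and 2489.4 in lean rats, had a log2 fold change of 0.23 ± 0.14 (SE), and the value was 0.12 without obese rat 3, the rat with the highest signal. Mrpl13 had 3571.8, 3902.5 and 4807.4 in obese rats and 3035.7, 3669.2 and 3937 in lean rats. Its log2 fold change was 0.20 ± 0.093 (SE; adjusted p = 0.306 by limma), and the obese median lay just under the highest lean signal.

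Mrpl16 and Mrpl1 went the other way. Mrpl16, the counterpart of a bacterial protein beside the aminoacyl-tRNA site of the peptidyl transferase centre, had signals of 2180.8, 2460.4 and 3645.4 in obese rats and 2566.4, 3210.1 and 3611.5 in lean rats. Its log2 fold change was -0.27 ± 0.11 (SE; adjusted p = 0.279 by limma) with 15 arrays and -0.34 ± 0.11 (SE; adjusted p = 0.127 by limma) with 13. The highest signal of all was that of obese rat 1, and without the pair the highest obese signal was 3027.7. Mrpl1, the protein of the mobile stalk beside the exit site for transfer RNA, had 2108, 2381.7 and 3259 in obese rats and 2081.8, 3120.4 and 3655.4 in lean rats. Its log2 fold change was -0.23 with 15 arrays and -0.31 with 13 (adjusted p 0.381 and 0.225 by limma). In both genes the groups overlapped in either array set.

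The landmarks of the large subunit held members of both signs. In the stalk that recruits translation factors, 3 of 4 members above the filter were positive, with a median of 0.056. Mrpl12, which forms the stalk and is also known to bind the mitochondrial RNA polymerase, had signals of 3125.2, 3526.5 and 3757.3 in obese rats and 2666.6, 2983.1 and 3748.6 in lean rats, and its log2 fold change was 0.15 ± 0.092 (SE; adjusted p = 0.439 by limma). Mrpl53, a mitochondria-specific protein at the stalk base, had 5173.5, 5810.3 and 7015 in obese rats and 4943.4, 6562.5 and 7646.8 in lean rats, and its log2 fold change was -0.15 ± 0.10 (SE; adjusted p = 0.497 by limma). The groups overlapped in both genes. Mrpl12 stayed positive in every setting, with a mean over probe sets of 0.032 with 15 arrays. Another probe set of Mrpl12 above the filter, however, had a log2 fold change of -0.088 with 15 arrays and -0.13 with 13. The sign of Mrpl53 did not hold in every setting, as it was at 0.0017 under median centring with 13. In the central protuberance 2 of 5 members were positive, with a median of -0.020.

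Around the exit tunnel 5 of 6 members were positive, with a median of 0.081. Mrpl17, near the tunnel's opening, was the brightest large-subunit probe set. It had signals of 10052.4, 11157.9 and 12797.2 in obese rats and 8992.5, 9908.5 and 11748.2 in lean rats, and its log2 fold change was 0.18 ± 0.085 (SE; adjusted p = 0.329 by limma). Mrpl47, at the same opening, was the 1 negative member: it had 672.1, 884.3 and 1290.8 in obese rats and 770.7, 1069 and 1333.8 in lean rats, and its log2 fold change was -0.13 ± 0.15 (SE), between -0.20 and -0.057 when 1 rat was left out.

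Of the large-subunit proteins listed as without a counterpart in the bacterial ribosome, 11 of 18 were positive, with a median of 0.041. Mrpl37 had the most positive value of the large subunit. Its signals were 5217.4, 5795.5 and 7621.2 in obese rats and 3918.3, 4855.3 and 5994 in lean rats, and its log2 fold change was 0.27 ± 0.11 (SE; adjusted p = 0.245 by limma) with 15 arrays and 0.32 ± 0.12 (SE; adjusted p = 0.191 by limma) with 13. The groups overlapped. A second probe set of Mrpl37 had a log2 fold change of 0.36 ± 0.11 (SE; adjusted p = 0.145 by limma). Its remaining probe set, below the filter, had medians of 243.4 in obese rats and 378.45 in lean rats, and the mean over the 3 probe sets gave a log2 fold change of 0.16 with 15 arrays (adjusted p = 0.559 by limma) and 0.17 with 13. Mrpl58, also known as ICT1, a peptidyl-tRNA hydrolase built into the subunit that releases stalled chains, had 1168.7, 1752.4 and 2811.3 in obese rats and 1490.9, 1766.9 and 2228.5 in lean rats. Its log2 fold change was 0.025 ± 0.15 (SE), and the obese rats spread beyond the lean range on both sides. Mrpl14, the dimmest large-subunit probe set and not tested, had 159.2, 351.4 and 658.1 in obese rats and 83.1, 172.9 and 381.3 in lean rats.

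In the small subunit Mrps12 was the 1 member of 71 whose groups did not overlap, with either array set. Among all probe sets 0.107% had every obese rat above every lean rat with 15 arrays, and 0.918% with 13. In either direction 0.193% of probe sets did not overlap with 15 arrays and 1.45% with 13, so that with 13 arrays a single member of 71 is near the background. Mrps12 (Entrez gene 292758) is the counterpart of the bacterial protein at the decoding centre, where codon and anticodon are matched. Its signals were 4446.4, 4534.9 and 5292.2 in obese rats and 3187.2, 3809.3 and 4365.5 in lean rats. Obese rats averaged 4672.3 ± 298.5 (SD, n = 7), and lean rats averaged 3774.4 ± 386.4 (SD, n = 8). The log2 fold change was 0.31 ± 0.084 (SE), with a 95% interval of 0.13 to 0.48 and a limma adjusted p of 0.123 with 15 arrays. With 13 it was 0.34 ± 0.092 (SE), with an interval of 0.14 to 0.53 and an adjusted p of 0.0910. The highest lean signal was that of lean rat 7, and without it the highest was 4055.6. Under other settings the adjusted p ran from 0.0666 to 0.342 with 15 arrays and from 0.0383, under median centring, to 0.318 with 13.

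**Figure D4:**
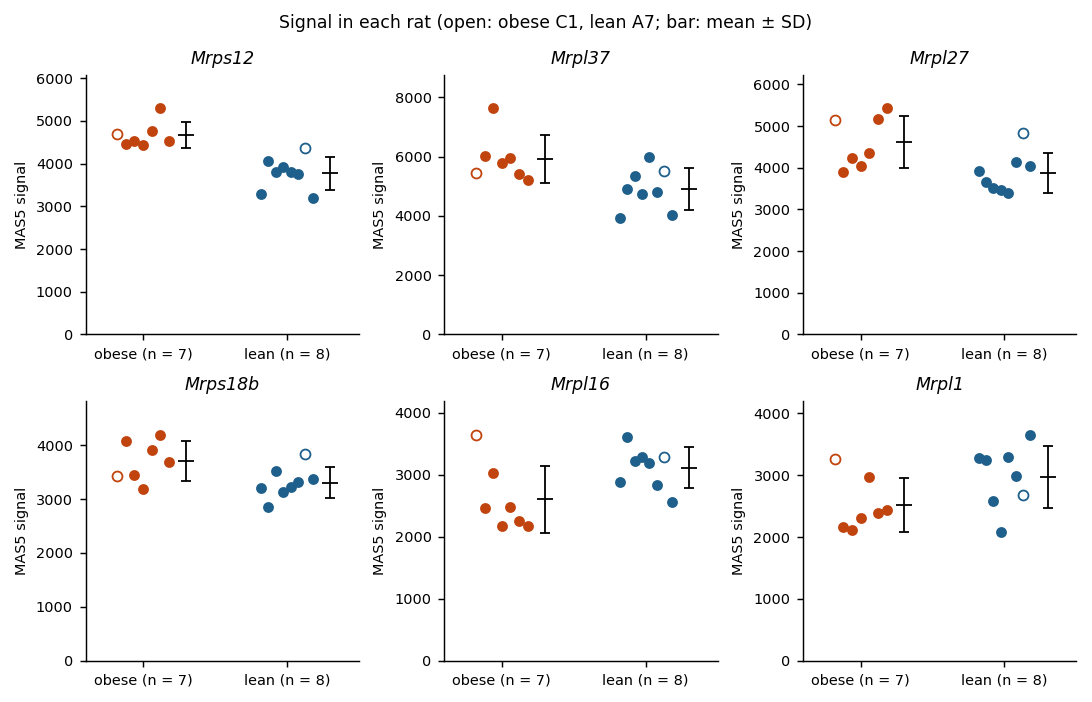
MAS5 signal (vertical axis, linear, from 0) of 6 members in each of 7 obese rats (left in each panel) and 8 lean rats (right), a point per rat, with the mean ± SD beside the points and obese C1 and lean A7 as open points. Obese and lean rats of Mrps12 do not overlap, those of the other 5 members do, and Mrpl16 and Mrpl1 have lower obese means.

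Of the small-subunit proteins with a bacterial counterpart, Mrps12 included, 11 of 15 were positive, with a median of 0.059. Mrps5, which lies by the messenger's entry to the bacterial subunit, had signals of 794.4, 1215 and 1959.1 in obese rats and 697.3, 1048.1 and 1250.9 in lean rats, and its log2 fold change was 0.28 ± 0.17 (SE; adjusted p = 0.429 by limma), which was 0.17 without obese rat 3. Mrps21 had 3565.2, 4297.7 and 4456.6 in obese rats and 3262.2, 3760.1 and 4266.7 in lean rats, and its log2 fold change was 0.17 ± 0.084 (SE; adjusted p = 0.339 by limma). Mrps16 had 3263, 3912.1 and 4336.5 in obese rats and 2801.4, 3252.3 and 5008.6 in lean rats, and its log2 fold change was 0.16 ± 0.12 (SE; adjusted p = 0.519 by limma). In Mrps5 and Mrps21 the highest signals were obese, while in Mrps16 a lean rat was above all obese rats. Mrps7, a protein of the head of the subunit and the brightest small-subunit probe set, had 8292.6, 10055.9 and 12620.1 in obese rats and 7739.5, 9358.3 and 12310.2 in lean rats, and its log2 fold change was 0.077 ± 0.12 (SE). In the head as a whole 4 of 6 members were positive, with a median of 0.065.

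Several homologues of bacterial protein S18 exist in mammals. The log2 fold changes of their brightest probe sets differed in sign, but the negative value, of Mrps18c, was smaller than its SE. Mrps18b, the one with all 3 regulator motifs, had signals of 3187.5, 3680.3 and 4192.5 in obese rats and 2845, 3268 and 3843.2 in lean rats, with a log2 fold change of 0.16 ± 0.087 with 15 arrays and 0.21 ± 0.094 with 13 (SE; adjusted p 0.384 and 0.259 by limma). Mrps18a, which sits in the large subunit despite its name, had 1652.5, 1969.3 and 2407.1 in obese rats and 1462.7, 1875.8 and 2150.3 in lean rats, and its log2 fold change was 0.097 ± 0.11 (SE). Mrps18c had 1155.5, 1273.4 and 1740.2 in obese rats and 1004.8, 1307.9 and 1875.5 in lean rats, and its log2 fold change was -0.059 ± 0.12 (SE), positive at 0.042 under median centring. Another probe set of Mrps18c had a log2 fold change of 0.11 ± 0.23 (SE). The groups overlapped in all 3 genes, and the difference between their fold changes was not tested.

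Of the small-subunit proteins found in mitochondria alone, 5 of 9 were positive, with a median of 0.10. Mrps31 had signals of 1109.4, 1435.9 and 1701.9 in obese rats and 781.7, 1194.6 and 1887.6 in lean rats, and its log2 fold change was 0.27 ± 0.15 (SE; adjusted p = 0.383 by limma). Mrps26 had 4700.3, 5476.6 and 5993.7 in obese rats and 4314.1, 4659.2 and 6201.7 in lean rats, and its log2 fold change was 0.18 ± 0.091 (SE; adjusted p = 0.352 by limma), against 0.051 in the mean with a second probe set below the filter. In both, the lean rats reached from below to above the obese range. Mrps27, a pentatricopeptide repeat protein that binds RNA and the dimmest small-subunit probe set, had 425.9, 560.2 and 800.2 in obese rats and 421.6, 613 and 996.2 in lean rats, and its log2 fold change was -0.16 ± 0.17 (SE). Mrps33 had 2846.7, 3680.7 and 4169.1 in obese rats and 3244.8, 3851.2 and 4662.4 in lean rats, and its log2 fold change was -0.14 ± 0.099 (SE). Mrps30, another protein of the large subunit despite its name, had 2568.6, 2917.6 and 3323.3 in obese rats and 2895.1, 3086 and 3380.8 in lean rats, and its log2 fold change was -0.079 ± 0.079 (SE), against 0.022 under median centring. Mrps36 was not analysed here.

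Different probe sets of a member did not always share a sign. Of 18 members with more than 1 probe set, 13 had at least 2 above the filter. In 8 of those 13 the probe sets differed in sign with 15 arrays. The share over all genes with several probe sets was not counted, so this says nothing particular to the members. Mrps14 had a log2 fold change of 0.12 ± 0.13 (SE) in its brightest probe set and -0.25 ± 0.083 (SE; adjusted p = 0.175 by limma) in another. Mrps2 had -0.0040 ± 0.10 and -0.30 ± 0.12 (SE), and Mrpl40 had -0.055 ± 0.10 and 0.27 ± 0.12 (SE). RefSeq names 36 pseudogenes of 21 members, among them 9 of Mrpl30 and 1 of Mrpl37. Whether probe sets bind their transcripts was not tested.

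The spread between rats differed among the members. The median SD within groups, on the log2 scale, was 0.204 over 71 members, 0.243 over 10514 genes by their brightest probe set and 0.263 over all probe sets tested. These medians were not tested against each other. Among members it ran from 0.086 for Mrpl43 to 0.405 for Mrpl32 with 15 arrays. Mrpl43, a mitochondria-specific large-subunit protein, had signals of 5927.7, 6832.6 and 6911.9 in obese rats and 5941.4, 6552.4 and 7221.5 in lean rats, with a log2 fold change of 0.029 ± 0.074 (SE). That is the narrowest estimate among the members described here. Mrpl32, the counterpart of a bacterial protein whose mitochondrial form is known to be matured by the m-AAA protease, had 836, 2150.9 and 2621.8 in obese rats and 1368.4, 1759.2 and 2301 in lean rats. Its lowest signal was that of obese rat 3.

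Averaged over genes, each rat's deviation from the mean of all 15 arrays placed the groups next to each other with overlap. For the large subunit the deviations were -0.057, 0.058 and 0.121 on the log2 scale (lowest, median and highest) in obese rats and -0.135, -0.027 and 0.034 in lean rats. For the small subunit they were -0.079, 0.080 and 0.127 in obese rats and -0.121, -0.036 and 0.048 in lean rats. Obese rats 1, 3, 6 and 7 were above every lean rat in both subunits, obese rats 2 and 8 were below the mean in both, and lean rats 1 and 3 were the lowest in both. The order depends on the scaling: under median centring obese rats 1, 6 and 7 were still above every lean rat in both subunits, but obese rat 3 was at -0.024 in the large subunit, below lean rats 2, 7 and 8, and at 0.046 in the small subunit, below lean rat 7. Obese rat 8 was then above the mean in both, and lean rat 1 was not among the lowest 2 in the large subunit. The rats' deviations in the large and small subunits came from the same arrays and share their scaling.

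**Figure D5:**
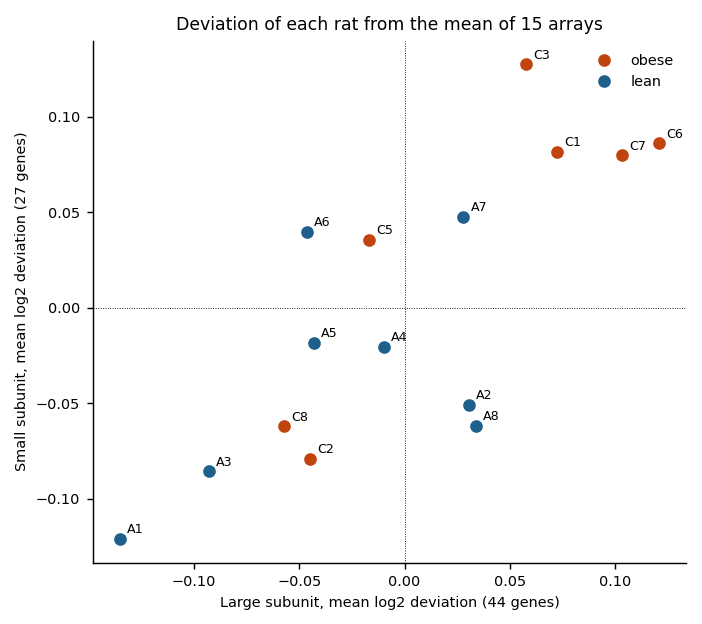
Mean log2 deviation of each rat from the mean of 15 arrays over 44 large-subunit genes (horizontal axis) and 27 small-subunit genes (vertical axis), with C for obese and A for lean rats and the rat's number. C1, C3, C6 and C7 lie at the upper right above all lean rats, while C2 and C8 lie among the lean rats; under median centring C3 was not above all lean rats.

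Markers of other cell types and a measure of RNA quality are given beside these values. The summed signal of 19 macrophage markers was 189600, 277694 and 465410 in obese rats and 149768, 182685 and 223677 in lean rats (lowest, median and highest), and 18 of the 19 had a positive log2 fold change, with a median of 0.43 with 15 arrays and 0.49 with 13. Of them 0 passed with 15 arrays and 7 with 13, against 0% and 1.01% of all probe sets. The summed signal of 12 adipocyte markers was 485513, 613280 and 966480 in obese rats and 513678, 723090 and 762906 in lean rats, with a median log2 fold change of -0.045. That of 8 mesothelial markers was 16946, 20525 and 32142 in obese rats and 14264, 27021 and 38677 in lean rats, with a median of -0.28, and 1 of 8 was positive. Of 9 T and B cell markers 3 were above the filter, and 0 of these 3 were positive, with a median of -0.15 with 15 arrays and -0.18 with 13. The Gapdh 3′ to 5′ ratio, a sign of RNA degradation, averaged, on the log2 scale, 0.77 ± 0.28 for obese rats (SD, n = 7) and 1.05 ± 0.26 for lean rats (SD, n = 8), with an exact two-sided permutation p of 0.075 over 6435 regroupings. The part of these measures in the members' values was not tested, beyond the fit with the Gapdh ratio as a covariate, in which the distance between the medians of the members and of all probe sets was 0.097 with 15 arrays.

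The rest of the mitochondrial translation machinery did not share a direction. Of 5 mitoribosomal proteins with other names, 3 were positive, and 0 passed the threshold. Aurkaip1, a small-subunit protein also named for binding Aurora kinase A, had signals of 3211, 4207.9 and 5190.5 in obese rats and 2595.6, 3186 and 3581.1 in lean rats, and its log2 fold change was 0.42 ± 0.12 (SE; adjusted p = 0.133 by limma) with 15 arrays and 0.50 ± 0.13 (SE; adjusted p = 0.0735 by limma) with 13. Ptcd3, a pentatricopeptide repeat protein of the small subunit, had 3238.6, 4557.3 and 8695.3 in obese rats and 3111.9, 3671.3 and 4053.3 in lean rats, and its log2 fold change was 0.44 ± 0.16 (SE; adjusted p = 0.221 by limma). Gadd45gip1, a large-subunit protein, had 2568.1, 3193.5 and 3546.5 in obese rats and 2217.3, 2542.8 and 2962.4 in lean rats, and its log2 fold change was 0.27 ± 0.095 (SE; adjusted p = 0.198 by limma). All 3 had higher medians in obese rats and overlapping groups.

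Among 21 factors of mitoribosome assembly and ribosomal RNA modification, 10 were positive. Of the 21, 0 passed the threshold with 15 arrays and 1 with 13, against 0% and 1.01% of all probe sets. Mpv17l2, an inner-membrane protein needed for mitoribosome assembly in human cells, had signals of 1250.5, 1659.7 and 1888.7 in the 6 obese rats and 859.9, 1049.8 and 1294.3 in the 7 lean rats. Its log2 fold change was 0.57 ± 0.12 (SE; adjusted p = 0.0437 by limma), and the groups overlapped in their extremes. With 15 arrays it was 0.50 ± 0.12 (SE; adjusted p = 0.105 by limma). With 13 arrays the call was lost in a fit with Gapdh ratio as covariate (adjusted p = 0.140 by limma), where the log2 fold change was 0.58, and with no filter (0.102), where it was 0.57. It was also lost when any of 11 of the 13 rats was left out, with log2 fold changes of 0.53 to 0.64 over all 13 omissions and an adjusted p of at most 0.103, without obese rat 6. Rpusd3, a pseudouridine synthase of mitochondrial RNA, had 512.8, 818.4 and 954.3 in obese rats and 246.9, 528.4 and 840.3 in lean rats. With 15 arrays its log2 fold change was 0.54 ± 0.23 (SE), with a limma adjusted p of 0.269. Gtpbp10, a GTPase of large-subunit assembly, had a log2 fold change of -0.31 ± 0.20 (SE; adjusted p = 0.471 by limma).

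The factors that work with the ribosome were of both signs. Of 9 translation factors 5 were positive and 0 passed; the elongation factor Tufm had a log2 fold change of 0.20 ± 0.11, the initiation factor Mtif2 -0.38 ± 0.16 and the recycling factor Mrrf -0.19 ± 0.12 (SE). A second probe set of Tufm had 0.48 ± 0.15 with 15 arrays and 0.55 ± 0.16 with 13 (SE), and the mean over its probe sets passed with 13 (0.68; adjusted p = 0.0299 by limma). A second probe set of Mrrf had 0.31 ± 0.17 (SE), and the mean over its probe sets was positive at 0.061, both with 15 arrays. Mtif2 had signals of 1191, 1436.3 and 2022.8 in obese rats and 1542.6, 1711 and 3243.2 in lean rats. Of 12 mitochondrial aminoacyl-tRNA synthetases and related enzymes, which charge transfer RNAs, 5 were positive and 0 passed, with a median of -0.074. The tryptophan enzyme Wars2 had 521, 678.7 and 1088.1 in obese rats and 682.4, 960.1 and 1190 in lean rats, and its log2 fold change was -0.36 ± 0.15 with 15 arrays and -0.47 ± 0.15 with 13 (SE; adjusted p 0.251 and 0.115 by limma). Cars2 and Rars2, the cysteine and arginine enzymes, had -0.26 ± 0.14 and -0.11 ± 0.081 (SE). Mtif2 and Wars2 overlapped between the groups.

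Of 12 genes of mitochondrial DNA transcription and replication 4 were positive and 0 passed, with a median of -0.017. The DNA polymerase Polg had a log2 fold change of -0.22 ± 0.13, the single-stranded DNA binding protein Ssbp1 0.20 ± 0.15 and the transfer RNA processing enzyme Elac2 -0.19 ± 0.15 (SE). The direction of Ssbp1 was not stable: another probe set had -0.045 ± 0.13 (SE), and with the Gapdh ratio as covariate the value was -0.025, both with 15 arrays. Of 7 nuclear regulators 3 were positive and 0 passed, with a median of -0.063. Ppargc1a, a coactivator of mitochondrial biogenesis, had 417.3, 729.6 and 1154.6 in obese rats and 326.6, 1168.1 and 1360.4 in lean rats, and its log2 fold change was -0.34 ± 0.24 (SE), between -0.54 and -0.22 when 1 rat was left out. Of the 7 obese rats 0 were above the lean median, while the lowest signal of all was that of a lean rat. Gabpa and Yy1, whose motifs are common in the members' promoters, had -0.15 ± 0.12 and -0.080 ± 0.11 (SE), and another probe set of Yy1 had 0.013. None of these 3 regulators passed the threshold. Cytosolic ribosomal proteins, which translate the cell's other messengers, were 25 of 41 positive with a median of 0.060, and 0 passed; the mitochondrial members' median was 0.077 beside it, and this difference was not tested.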

How the data were processed

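Epididymal fat of 7 obese and 8 lean rats was measured on 1 array per rat. The deposited values are intensity values made by the authors with MAS5, per the submitters' processing notes; its version and settings are not given in the sources used here. Trimmed means (2%) near 1500.4 on every array show a common scaling, and the signals were used as deposited. Low MAS5 signals are noisy, and scaling to a common mean lets bright probe sets lower the rest.

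Controls (57 of 31099 probe sets) were removed. Values were transformed as log2(signal + 79.9), where 79.9 is the 10th percentile over all arrays, and probe sets above the 40th percentile of mean log2 signal were kept, 18625 in all. The test was limma's lmFit and eBayes (version 3.58.1, R 4.3.3), with Benjamini-Hochberg adjustment over all kept probe sets. The step was tested on simulated data. Python 3.11.15 and matplotlib 3.10.9 made the figures. The platform's annotation gave a single gene for 20826 probe sets, of which 20758 matched a current Entrez ID. It gave several genes for 436, which were left unnamed, and no gene for 9780.

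The members and lists, and the exclusion of obese C1 and lean A7, were chosen with earlier results of these data known. Members named with values were, for each subunit, the 6 most positive and 4 most negative log2 fold changes, the brightest and dimmest probe sets, and 9 fixed genes, of which Mrps36 was not analysed; of each other mitochondrial list, up to 3 with the smallest p and any that passed. Members named for their spread or for disagreeing probe sets were chosen after their values were seen. Rat numbers were not used as pairs in the main fits, since each number stands for a separate rat in either group. The labels do not say whether same-numbered rats were matched in some other way. Deviations of same-numbered rats correlated between -0.11 and 0.24. Alternatives were pseudocounts of 1 and 291.2, no filter and the 60th percentile, median centring, quantile normalization, a replicate block, array weights, trend and robust eBayes, the Gapdh ratio as covariate, each rat left out, and a gene's probe sets averaged.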

Additional observations from a re-analysis of the deposited data

Results flagged for a closer look

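In each member and group, 146 sets of values in all, the highest or lowest rat was compared with the nearest of the others by Dixon's ratio. The ratio passed its 95% critical value in 14 sets, 8 of obese and 6 of lean rats, where chance gives about 1 in 20. Values are log2(signal + 79.9). Obese rat 3 stood apart in 4 genes: it was lowest in Mrpl32 at 9.84 and highest in Mrpl34 at 11.90, in Mrpl37 at 12.91 and in Mrpl49 at 11.79. Obese rat 6 was highest in Mrpl42 at 12.60 and lowest in Mrpl43 at 12.55. Obese rat 7 was highest in Mrps12 at 12.39, where the next obese rat was at 12.24, and in Mrps18c at 10.83. Among lean rats, rat 8 was highest in Mrpl33 at 13.94 and in Mrpl42 at 12.56, rat 2 highest in Mrpl51 at 12.46, rat 1 lowest in Mrpl52 at 10.74, rat 3 lowest in Mrps25 at 10.94 and rat 5 highest in Mrps26 at 12.62. Without obese rat 7 the log2 fold change of Mrps12 was 0.28, and without obese rat 3 that of Mrpl37 was 0.21, in the fits of the 15 arrays less that rat.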

How the results depend on the processing

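The count of members past the threshold was 0 under every alternative run with 15 arrays. With 13 arrays it was 0 under all but median centring, where 2 of 71 passed. They were Mrps12 (0.45, adjusted p = 0.0383 by limma) and Mrpl37 (0.43, adjusted p = 0.0490 by limma). Under that setting 389 of all 18625 probe sets passed, and the members' share was not tested against this. Median centring gave medians of 0.18 for the large and 0.18 for the small subunit with 15 arrays, and 0.22 and 0.19 with 13. Leaving out each rat gave medians of 0.054 to 0.093 for the large and 0.048 to 0.105 for the small subunit with 15 arrays, and 0.061 to 0.106 and 0.041 to 0.102 with 13. With the rat number as a replicate block the medians were 0.077 and 0.10 with 15 arrays, and 0.062 and 0.096 with 13, with 0 members called; Mpv17l2 then lost its call (0.67; adjusted p = 0.181 by limma).

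Of 2224 log2 fold changes of 44 named genes that were tested, under alternatives, 2170 kept their direction and side of the threshold, 30 changed sign, 10 newly passed and 14 no longer passed. With 15 arrays the sign changed under median centring for Mrps30 (0.022), Mrps18c (0.042) and Yy1 (0.021), under quantile normalization for Mrps7 (-0.0026), with the Gapdh covariate for Ssbp1 (-0.025), and with the mean over probe sets for Mrrf (0.061) and Yy1 (0.063). With 13 arrays it changed under median centring for Mrpl53 (0.0017), Mrps30 (0.015), Mrps18c (0.038) and Yy1 (0.011). With the Gapdh covariate it changed for Mrps16 (-0.022), Mrps27 (0.0085), Mrpl58 (-0.029) and Ssbp1 (-0.060). Quantile normalization gave Mrps7 -0.0072, the replicate block gave Mrps7 -0.0014 and Mrpl58 -0.13, and the mean over probe sets gave Mrrf 0.11 and Yy1 0.11. Leaving out single rats, Mrpl58 ran from -0.079 to 0.12 with 15 arrays and from -0.13 to 0.11 with 13, and Mrps18c from -0.12 to 0.0030 with 15. Leaving out a rat moved the value of 10 of 26 named members by over 1.5 times with 15 arrays and of 12 with 13, none of them past the threshold. The cause of these changes was not tested.

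Over all probe sets, 0 passed with 15 arrays (1256 higher and 1642 lower at an unadjusted p under 0.05), 245 without obese rat 1, 1 without lean rat 7, 49 with the filter at the 60th percentile, 8 with trend and robust eBayes and 3 with no filter. With 13 arrays 189 passed, with a range of 51 to 262 when a rat was left out and of 3 (replicate block) to 389 (median centring) under other settings, 14 with the Gapdh covariate and 46 with no filter. Of other named genes, Tufm, as given above, and Wars2 (-0.50; adjusted p = 0.0336 by limma) passed with the mean over probe sets, Gadd45gip1 (0.44; 0.0389) under median centring, and Aurkaip1 with array weights, the 60th percentile filter, trend and robust eBayes, and without obese rat 3, all with 13 arrays.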
